A study of Mus musculus with 24 samples.

Results

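The genes described here encode the machinery that copies DNA. They were taken by name, as a list of 42 genes for origin licensing, DNA polymerases and the replication fork, and all 42 were among the 22009 named genes of the expression table. They were grouped by role into the MCM2-7 helicase (6 genes), origin loading and firing (12), polymerases and primase (9), the sliding clamp and its loader (6), lagging strand and single-stranded DNA factors (5), and chromatin assembly and fork protection (4).

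RNA sequencing had been carried out on CD4+ T cells of wildtype C57BL/6 mice, purified by negative selection from pooled adult spleens, in 24 libraries. Resting cells gave 2 libraries, and each culture condition (Th0, Th1, Th2) was sequenced once after 4, 8, 12, 16, 20 and 24 h. All cultures received anti-CD3 and anti-CD28, to which Th1 cultures added recombinant IL-12 with an antibody to IL-4, and Th2 cultures recombinant IL-4 with antibodies to IL-12 and IFN-γ. A further 4 libraries were made after 16 h of stimulation from cells then given actinomycin, an inhibitor of transcription, for 0, 1, 2 or 4 h, with no skewing condition named. All groups are therefore wildtype, and the cultures stem from 1 pool of cells, so the p-values measure the spread between libraries, not between animals.

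A resting T cell is out of the cell cycle, and stimulation through its receptor brings it through a long first G1 phase into S phase. Before S phase, ORC, Cdc6 and Cdt1 load the MCM2-7 ring on replication origins. The kinase of Cdc7 and Dbf4, together with Mcm10, Cdc45 and the GINS complex, then turns the ring into the active helicase. Primase and polymerase alpha start each strand, polymerases epsilon and delta extend it on the Pcna clamp that RFC loads, and Fen1 and Lig1 join the pieces of the lagging strand. Many of these genes are known targets of the E2F transcription factors, which retinoblastoma family proteins hold in check in resting cells.

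The libraries held between 17512385 and 33017133 mapped reads, a number recovered from the steps in the RPKM values (reads scaled by transcript length and by library depth). For 13 members, among them Mcm2 to Mcm6, Cdt1 and Chaf1a, the values were whole reads in every library, with 74 to 16443 reads per value. The CD4 T cell markers (Cd3e, Cd3d, Cd3g, Cd4, Cd28 and Lck) summed to 1706 and 1718 RPKM in the resting libraries and to between 1039 and 1215 RPKM in the cultures, whereas Cd8a and Cd8b1 together did not exceed 15.7 RPKM. The resting libraries also held transcripts of other cells: 14 erythroid genes summed to 39151 and 42709 RPKM, and 7 macrophage genes to 468 and 491 RPKM. Both sums fell in culture, the erythroid one only after 4 h, to between 5103 and 8338 RPKM at 12 h and between 145 and 214 RPKM at 24 h. The Th2 libraries at 4 and 24 h stood apart from their neighbours by transcript length. At 4 h the median log2 difference of Th2 from Th0 was 0.33 for genes under 1024 bases and -0.18 for genes over 4096 bases, and at 24 h these medians were 0.09 and -0.13. Resting and cultured libraries bear different tags in the labels, so an effect of preparation and one of activation cannot be told apart.

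The letters of E2F sites were looked for in the promoters, since the members moved together. RefSeq promoter windows (build GRCm38.p6, 250 bases before to 50 bases after a start) were matched for 34 of the 42 members, and the motifs searched on both strands were TTTCCCGC, TTTCGCGC, TTTGGCGC and TTTGCCGC. At least 1 of these was found for 15 of the 34 members (44.1%), against 2.61% of all 27025 genes with a window and 5.00% of those expressed at a mean of at least 1 RPKM. The same letters were found for 1 of 17 genes for mitosis, whereas the CHR letters TTTGAA and TTCGAA were found for 12 of those 17 and for 9 of the 34 members, with 21.7% in all genes. The letters CCAAT, also searched on both strands, were found for 21 of the 34 members and 14 of the 17 mitosis genes, with 41.1% in all genes. A match of letters is a description of the sequence and not evidence of binding. The stretches below show where the matches before the start lie in a helicase pair, 2 origin loading genes and a polymerase gene, written 5′ to 3′ on the strand of the gene, with the matched letters in capitals.
Mcm5, chr8:75109347-75109376, plus strand: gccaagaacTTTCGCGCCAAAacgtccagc
Mcm6, chr1:128359795-128359824, minus strand: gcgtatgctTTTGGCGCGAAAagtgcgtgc
Cdc6, chr11:98908004-98908029, plus strand: cggtggagaGCGGGAAAtcgcctggg
Orc1, chr4:108579418-108579443, plus strand: cggttagtgGCGCGAAAagttttctc
Pola1, chrX:93632277-93632302, minus strand: catcacaggGCGCCAAAtgcactccc
In Mcm5 and Mcm6 a pair of motifs overlaps, and the capitals of one are the reverse complement of the capitals of the other. They begin 153 bases before the start of Mcm5 and 110 bases before that of Mcm6.

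In resting cells the members were expressed at between 5.58 RPKM (Gins3) and 309.9 RPKM (Pcna), with a median of 23.8 RPKM. After activation most of them first fell and then rose. The mean of the 3 cultures was lowest at 4 h for 9 members, at 8 h for 22 and at 12 h for 11, and it was highest at 24 h for 41 of the 42, the exception being Pold2, which was highest at 20 h. The times of the lowest and highest mean were not counted over all genes. From the lowest mean to 24 h the members rose between 1.40-fold (Dbf4) and 18.1-fold (Mcm10), with a median of 3.43-fold. At 24 h the median of the members' means was 41.2 RPKM. In bulk libraries like these, fewer cells that express a gene and less RNA per cell cannot be told apart.

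**Figure D1:**
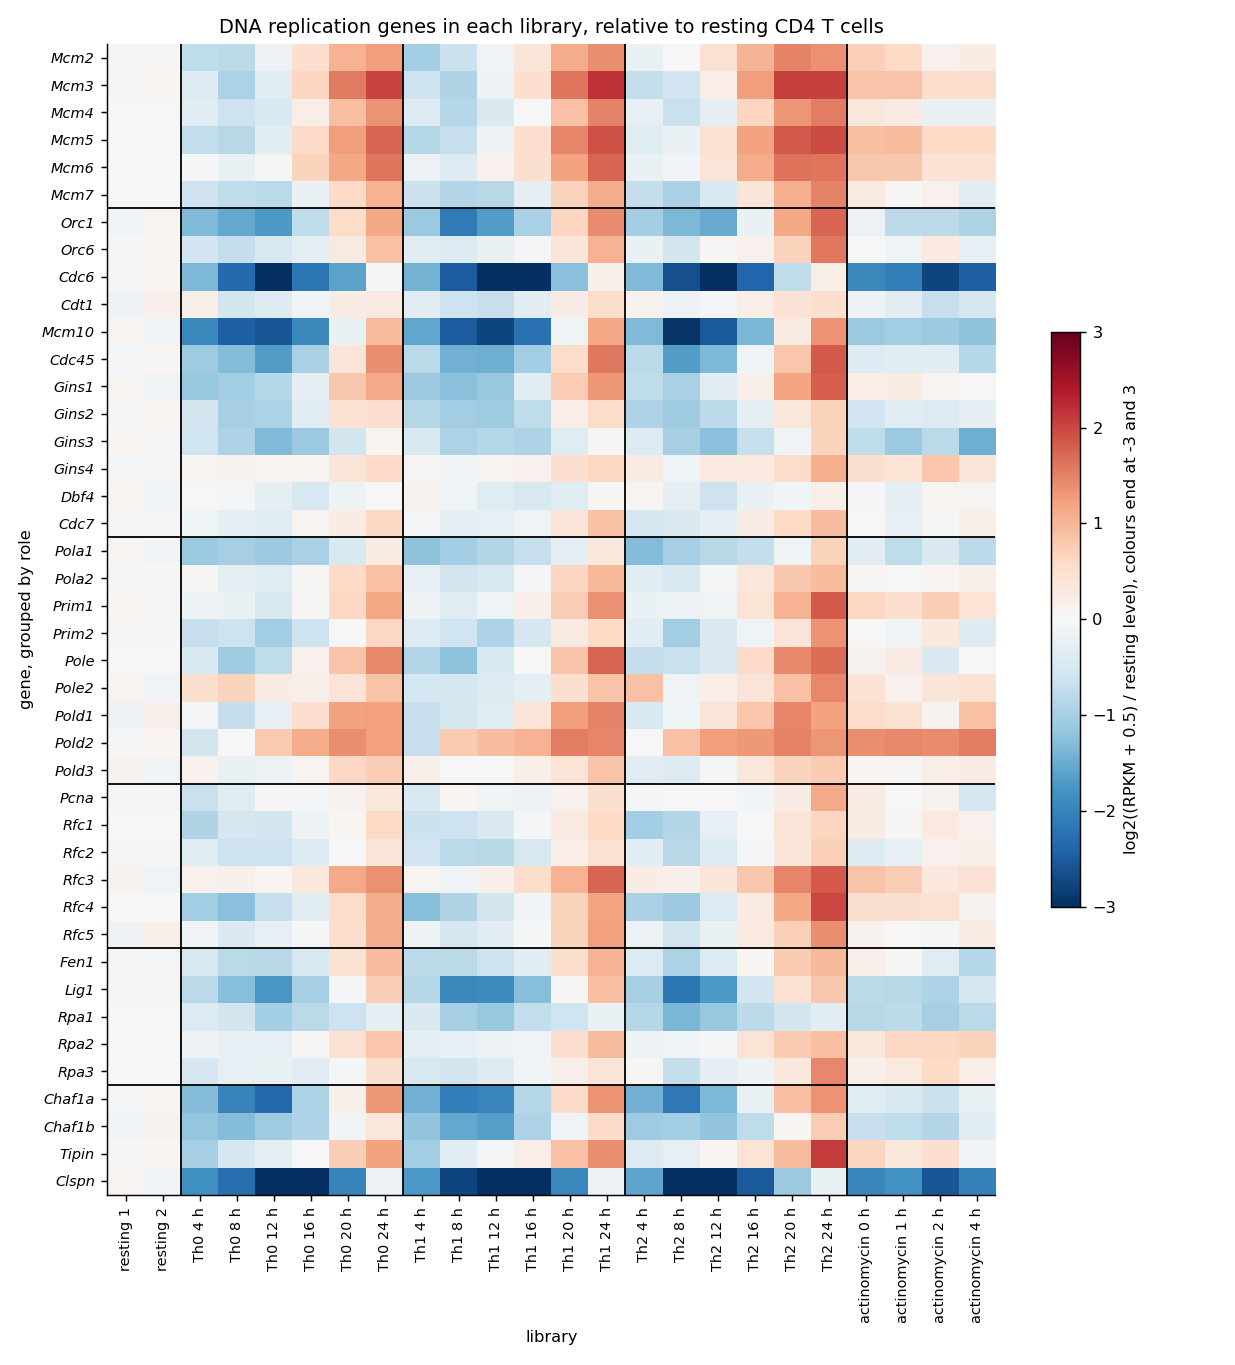
Level of each of the 42 genes (rows, grouped by role) in each of the 24 libraries (columns), as log2 of RPKM + 0.5 relative to the mean of the 2 resting libraries. Blue marks a level below rest and red a level above it. The fall of most members within the first 12 h and the rise to 24 h run through all 3 culture conditions. The fall was deepest for Cdc6, Mcm10 and Clspn.

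Each time point was compared with resting cells to ask when the machinery is expressed. A gene was counted as changed at an adjusted p under 0.05 (limma, Benjamini-Hochberg) and a change of at least 2-fold on the log2(RPKM + 0.5) scale. At 4, 8 and 12 h 8, 11 and 10 of the 42 had fallen, against 7.97%, 12.5% and 16.4% of the 10897 genes tested, and no member had risen, against 2.61%, 6.42% and 10.7%. At 16 h 1 had risen and 3 had fallen, where 11.2% and 14.5% of all genes did so. At 20 h 9 had risen and 2 had fallen (12.9% and 16.1% of all genes), and at 24 h 21 had risen and none had fallen (12.7% and 17.4% of all genes). Without a limit on size, 36 members were higher and none lower at 24 h, where the adjusted p alone called 31.6% of all genes higher and 33.6% lower. The median log2 change of the members went from -0.52 at 4 h, -0.69 at 8 h and -0.40 at 12 h through -0.07 at 16 h to 0.57 at 20 h and 1.01 at 24 h, while that of all genes stayed between -0.07 and -0.01. All 3 cultures at 24 h lay above both resting libraries for 37 members (38.7% of all genes). Without the Th2 libraries at 4 and 24 h, 19 members had risen at 24 h.

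**Figure D2:**
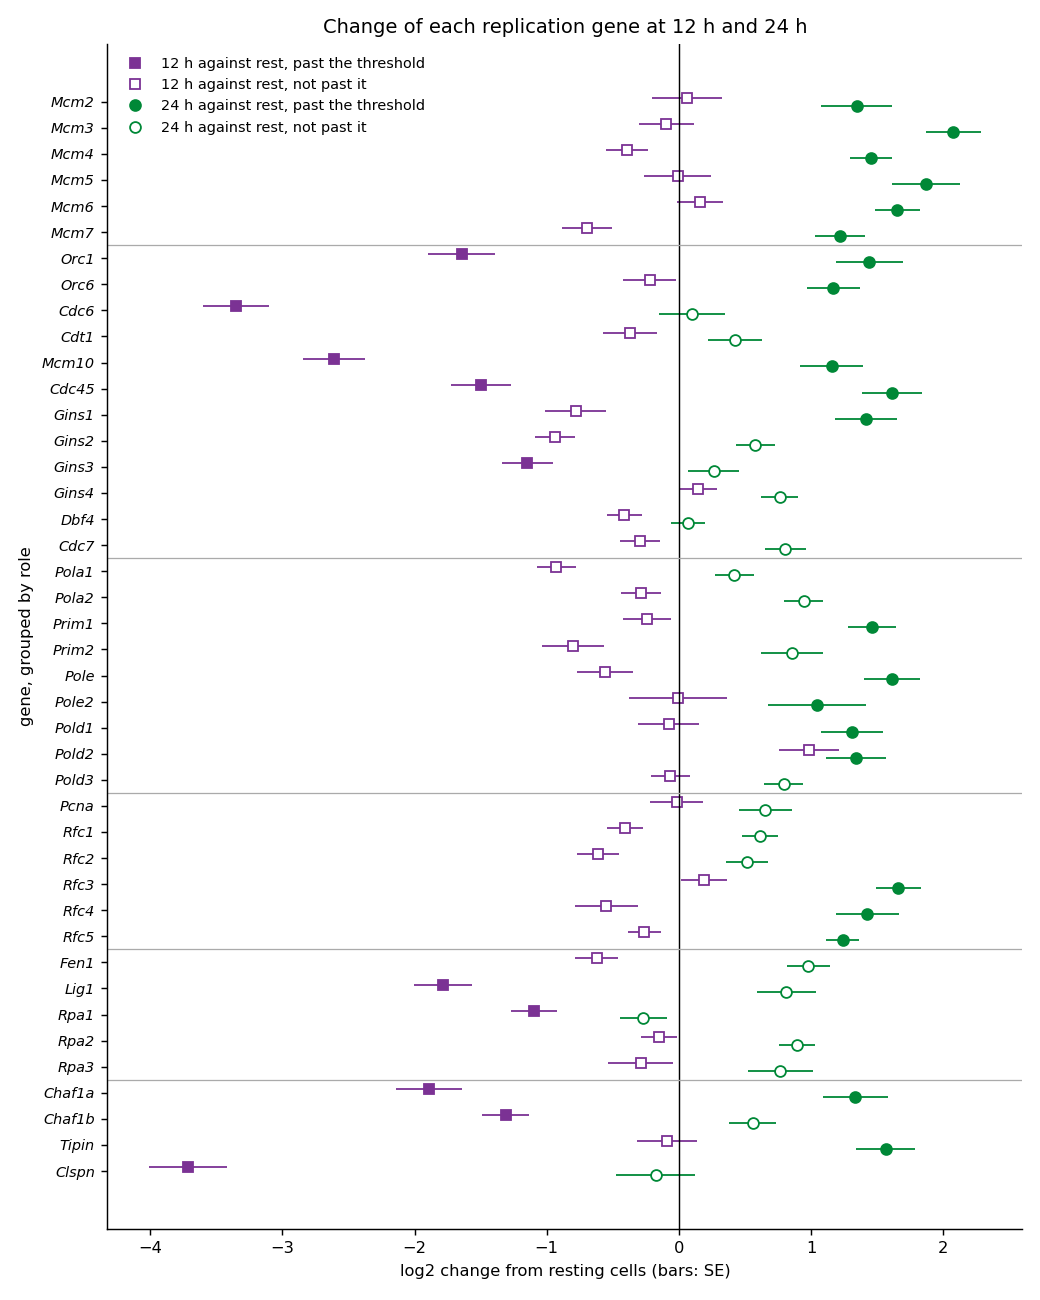
Log2 change from resting cells at 12 h (squares) and at 24 h (circles) for each gene, with the standard error as bars and filled symbols for genes past the threshold of adjusted p and size. The 10 filled squares all lie left of 0 and the 21 filled circles all lie right of it.

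The MCM2-7 genes, which encode the 6 subunits of the helicase ring, rose as a group. All 6 were past the threshold at 24 h, with log2 changes between 1.22 and 2.08. Mcm3 was at 35.8 and 38.5 RPKM in the resting libraries, at 29.4, 33.2 and 43.0 RPKM in the Th0, Th1 and Th2 cultures at 12 h, and at 152.3, 168.1 and 154.6 RPKM at 24 h. Every 24 h culture thus lay far above rest, while the 12 h cultures lay on both sides of it. Its log2 change at 24 h was 2.08 (SE 0.21, adjusted p = 4.21e-07, limma), and that of Mcm5 was 1.87 (SE 0.26, adjusted p = 1.06e-05, limma). Mcm2 was at 45.1 and 46.8 RPKM at rest, at 40.5, 43.0 and 63.6 RPKM at 12 h and at 111.1, 121.6 and 119.9 RPKM at 24 h. Its log2 change was 0.06 (SE 0.27, adjusted p = 0.85, limma) at 12 h and 1.34 (SE 0.27, adjusted p = 0.000338, limma) at 24 h. The subunits were not equally abundant. Their means ranged from 37.2 RPKM (Mcm3) to 102.9 RPKM (Mcm7) at rest, a ratio of 2.77, and from 116.7 RPKM (Mcm4) to 242.0 RPKM (Mcm7) at 24 h, a ratio of 2.07. Of the 50-base windows of the Mcm7 transcripts, 23.3% are shared with other genes. In all, 13 of the 42 members share over 5% of their windows. Taken as a sum over the 6 genes, the helicase was at 322 and 331 RPKM at rest, at between 197 and 239 RPKM at 8 h and at between 896 and 1021 RPKM at 24 h. All of the helicase sums at 8 h lay below rest and all of those at 24 h above it.

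Among the genes for origin loading and firing, several fell much further. Cdc6, the loading ATPase, was at 14.7 and 15.9 RPKM at rest, at 5.69, 5.43 and 5.83 RPKM in the Th0, Th1 and Th2 cultures at 4 h, and at 0.946, 1.38 and 0.854 RPKM at 12 h. It then returned to 14.8, 17.0 and 17.4 RPKM at 24 h, which overlapped with rest. Its log2 change was -3.35 (SE 0.25, adjusted p = 1.11e-08, limma) at 12 h and 0.10 (SE 0.25, adjusted p = 0.748, limma) at 24 h. Mcm10, which is needed to activate the helicase, was at 12.1 and 10.7 RPKM at rest, at 1.51, 1.28 and 1.57 RPKM at 12 h and at 22.3, 26.2 and 29.9 RPKM at 24 h. The cultures lay below rest at 12 h and above it at 24 h, with log2 changes of -2.61 (SE 0.24, adjusted p = 1.35e-07, limma) and 1.16.

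Cdc45, a subunit of the active helicase, followed the same course, at 11.4 and 11.8 RPKM at rest, at 3.26, 3.85 and 4.26 RPKM at 12 h and at 31.1, 35.8 and 42.99 RPKM at 24 h. Its log2 change was -1.50 (SE 0.23, adjusted p = 4.05e-05, limma) at 12 h and 1.61 (SE 0.23, adjusted p = 1.61e-05, limma) at 24 h. Orc1, the large subunit of the origin recognition complex, had log2 changes of -1.64 and 1.44 at these times. Orc6, the smallest subunit of that complex, moved less, from 18.2 and 19.7 RPKM at rest to 13.4, 16.3 and 19.3 RPKM at 12 h and to 35.2, 39.7 and 57.2 RPKM at 24 h. Its log2 change was -0.55 (SE 0.20, adjusted p = 0.0300, limma) at 8 h, under the limit on size, -0.22 (SE 0.20, adjusted p = 0.353, limma) at 12 h and 1.17 (SE 0.20, adjusted p = 9.75e-05, limma) at 24 h. The Orc6 rise fell to 0.96, below the limit of 2-fold, without the Th2 libraries at 4 and 24 h.

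**Figure D3:**
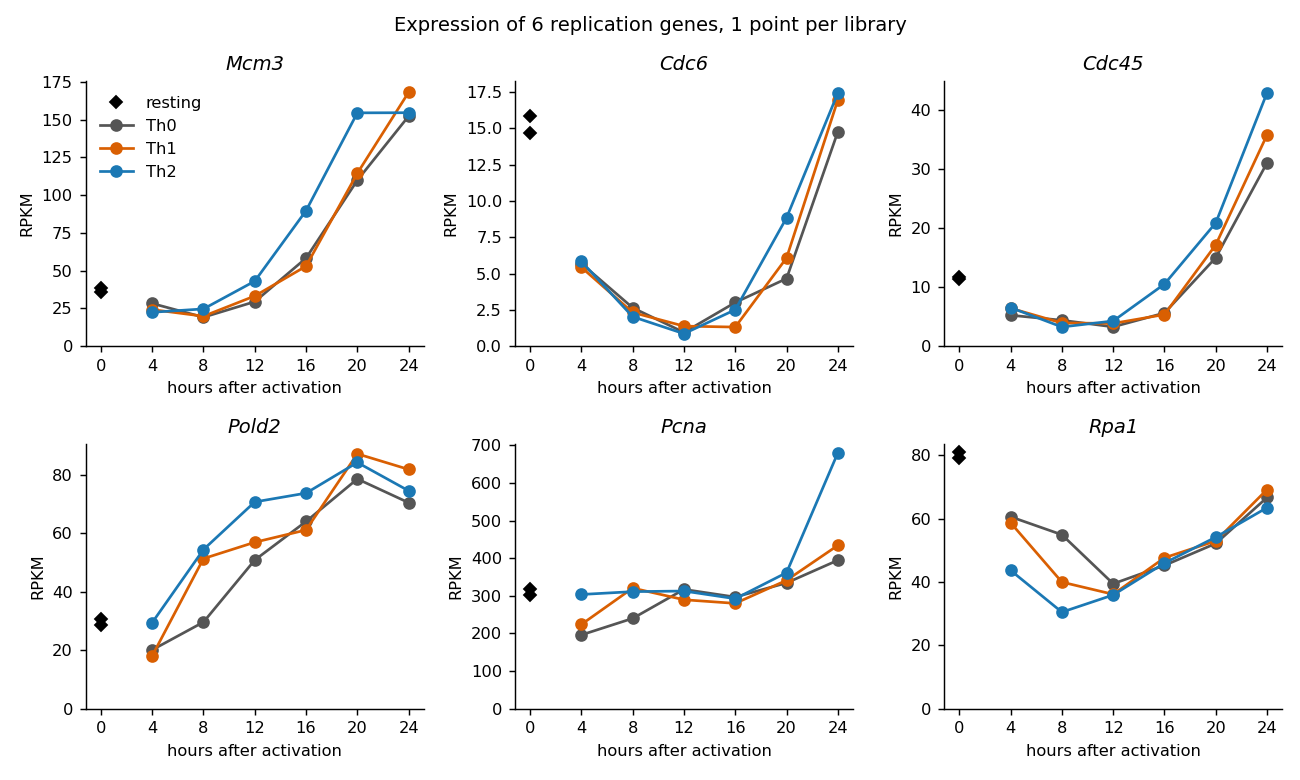
RPKM of 6 genes against hours after activation, with 1 point per library, diamonds for the 2 resting libraries at 0 h and a line for each culture condition. Mcm3 and Cdc45 ended above rest, and Cdc6 fell to about 1 RPKM at 12 h and came back to its resting level. Pold2 was above rest in all 3 cultures from 12 h on, with its highest mean at 20 h. Pcna was highest at 24 h and Rpa1 stayed below rest.

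The 4 genes of GINS, a complex of 4 different subunits within the active helicase, did not move in parallel. Gins4 was at 20.1 and 21.1 RPKM at rest, at 21.6, 21.8 and 25.3 RPKM at 12 h and at 31.0, 31.8 and 44.5 RPKM at 24 h. Gins3 was at 5.81 and 5.35 RPKM at rest, at 1.91, 2.85 and 2.06 RPKM at 12 h and at 5.95, 5.77 and 9.09 RPKM at 24 h. The ratio of the highest to the lowest mean in the complex was thus 3.69 at rest, 10.1 at 12 h and 5.16 at 24 h, with Gins4 the highest and Gins3 the lowest at each of these times. Gins1 passed the threshold at 24 h with a log2 change of 1.41. Gins2 had a log2 change of 0.58, but 65.4% of its 50-base windows are shared with Gse1 on the other strand, and whether the counting used strand is not given in the sources used here. Dbf4 and Cdt1 had log2 changes of 0.07 (adjusted p = 0.661, limma) and 0.43 (adjusted p = 0.0768, limma) at 24 h, neither of which passed the test. Cdt1 licenses origins together with Cdc6, and its 3 cultures at 12 h were at 19.7, 15.9 and 25.02 RPKM against 23.1 and 28.7 RPKM at rest.

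Among the polymerases and primase, all 9 genes had an adjusted p under 0.05 for a higher level at 24 h, and 5 passed the limit on size: Pole, Prim1, Pold2, Pold1 and Pole2, with log2 changes between 1.05 and 1.62. Pold2, the second subunit of polymerase delta, was the earliest to rise. It was at 28.5 and 30.6 RPKM at rest, at 20.1, 18.1 and 29.5 RPKM at 4 h, at 29.6, 51.3 and 54.4 RPKM at 8 h and at 64.0, 61.1 and 73.7 RPKM at 16 h. From 12 h on each culture lay above both resting libraries, and Pold2 was the only member past the threshold for a rise at 16 h, with a log2 change of 1.15 (SE 0.23, adjusted p = 0.000383, limma). This change was 1.00, just under the limit on size, once a trend with transcript length was removed. The catalytic subunit Pold1 reached its rise later, with log2 changes of -0.08 at 12 h and 1.31 at 20 h.

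Pola1, the catalytic subunit of polymerase alpha, was at 13.9 and 12.5 RPKM at rest, at 5.80, 5.43 and 5.02 RPKM at 4 h, at 5.96, 6.998 and 7.21 RPKM at 12 h and at 15.6, 16.7 and 21.7 RPKM at 24 h. It had fallen past the threshold at 4 h, with a log2 change of -1.21. The change was -0.93 (SE 0.15, adjusted p = 5.47e-05, limma) at 12 h and 0.42 (SE 0.15, adjusted p = 0.0191, limma) at 24 h, both under the limit on size. Over the alternatives the adjusted p at 24 h ranged from 0.00248 to 0.140 (limma), and it was over 0.05 without resting replicate 2, without the Th1 or the Th2 cultures, without the Th2 libraries at 4 and 24 h and with only the libraries compared. Prim1, the small primase subunit that works with it, was at 22.6 and 20.8 RPKM at rest and at 49.4, 56.8 and 78.9 RPKM at 24 h. Pole2, the second subunit of polymerase epsilon, varied widely between cultures early on: at 4 h it was at 14.1, 6.79 and 18.9 RPKM in Th0, Th1 and Th2, and at 8 h at 16.1, 6.80 and 9.24 RPKM. Its Th1 cultures lay below rest and its Th0 cultures above it at both times. These values are whole reads, with at least 359 reads in each resting library, and 8.16% of the windows of Pole2 are shared with other transcripts.

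Pcna, the sliding clamp, was the most abundant member throughout. It was at 317.8 and 302.0 RPKM at rest, at 317.1, 289.6 and 312.7 RPKM at 12 h and at 394.5, 433.9 and 679.7 RPKM at 24 h. Its log2 change was -0.02 (SE 0.20, adjusted p = 0.948, limma) at 12 h and 0.66 (SE 0.20, adjusted p = 0.00824, limma) at 24 h. The Th2 library at 24 h stood above the other two, the change was 0.42 without the Th2 libraries at 4 and 24 h, the adjusted p ranged from 0.00427 to 0.0557 (limma) over the alternatives, the highest without resting replicate 2, and 19.1% of the windows of Pcna are shared with the pseudogene Pcna-ps2. All 5 genes of its loader RFC had an adjusted p under 0.05 (limma) at 24 h, and Rfc3, Rfc4 and Rfc5 passed the limit on size. Of the windows of Rfc4 and Rfc5, 9.14% and 13.3% are shared with other genes. Rfc3 was at 13.7 and 11.8 RPKM at rest, at 13.2, 14.2 and 16.5 RPKM at 12 h and at 34.0, 44.1 and 47.1 RPKM at 24 h. No fall of Rfc3 passed the test at any time, and it rose by 1.66 (SE 0.17, adjusted p = 5.93e-07, limma) on the log2 scale at 24 h. Rfc4 did fall first, to 12.5, 10.6 and 13.2 RPKM at 4 h from 26.3 RPKM in both resting libraries, and it reached 57.2, 60.2 and 106.3 RPKM at 24 h.

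None of the 5 lagging strand and single-stranded DNA factors passed the limit on size at 24 h, although 4 of them had an adjusted p under 0.05. Fen1, the flap nuclease, was at 29.5 and 27.8 RPKM at rest and at 54.4, 59.7 and 57.0 RPKM at 24 h, a log2 change of 0.98. Of the windows of Fen1, 76.7% are shared with genes that overlap it on the other strand. Lig1, the ligase that seals the fragments, was at 37.8 and 39.1 RPKM at rest, at 11.1, 10.0 and 11.3 RPKM at 12 h and at 64.1, 72.5 and 67.7 RPKM at 24 h. Its cultures lay far below rest at 12 h and above it at 24 h, with log2 changes of -1.78 and 0.81.

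RPA, the trimer that coats single-stranded DNA, showed unequal courses of its subunits. Rpa1, the largest subunit, was at 79.0 and 81.1 RPKM at rest, at 39.4, 36.1 and 35.9 RPKM at 12 h and at 66.7, 69.2 and 63.5 RPKM at 24 h. It was the only member other than Clspn whose mean at 24 h was below rest. Rpa3, the smallest subunit, was at 30.1 and 30.8 RPKM at rest, at 26.3, 23.3 and 25.01 RPKM at 12 h and at 42.4, 40.2 and 83.6 RPKM at 24 h, with log2 changes of -0.29 (SE 0.25, adjusted p = 0.319, limma) at 12 h and 0.77 (SE 0.25, adjusted p = 0.0113, limma) at 24 h. The ratio of Rpa1 to Rpa3, each as its mean, therefore went from 2.63 at rest to 1.20 at 24 h. The cultures differed in this at 24 h: Rpa1 was above Rpa3 in Th0 (66.7 against 42.4 RPKM) and in Th1 (69.2 against 40.2 RPKM). In Th2 it was below Rpa3 (63.5 against 83.6 RPKM). The Th2 library at 24 h, in which short transcripts were higher, held the highest Rpa3 value, and without the Th2 libraries at 4 and 24 h its change at 24 h was 0.43. The adjusted p of Rpa3 at 24 h ranged from 0.00648 to 0.0583 (limma) over the alternatives, and was over 0.05 without either resting replicate and with only the libraries compared.

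Clspn, which encodes the checkpoint adaptor claspin at the fork, had the deepest fall. It was at 18.5 and 16.6 RPKM at rest, at 0.845, 0.631 and 1.22 RPKM at 12 h and at 15.4, 15.8 and 15.3 RPKM at 24 h. All 18 cultures lay below rest, with a log2 change of -3.71 (SE 0.30, adjusted p = 2.58e-08, limma) at 12 h and -0.18 at 24 h. The 2 CAF-1 genes, whose product places histones on new DNA, both fell. Chaf1a was at 8.34 and 8.99 RPKM at rest, at 1.32, 1.80 and 3.11 RPKM at 12 h and at 22.0, 23.0 and 22.9 RPKM at 24 h, and 49.7% of its windows are shared with other genes, chiefly Ubxn6 on the other strand. Its mean was below that of Chaf1b at rest, by a ratio of 1.71, and level with it at 24 h, at 22.6 and 22.2 RPKM. Tipin, which stabilises the fork together with Timeless, rose by 1.56 on the log2 scale at 24 h, with 74.0, 83.3 and 135.9 RPKM against 30.5 and 32.7 RPKM at rest.

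The rise was placed in time by comparing consecutive time points. From 4 to 8 h 2 members fell, Cdc6 and Mcm10 (1.84% of all genes fell), and from 8 to 12 h none passed the threshold in limma, where 1.25% of all genes did, with 12 at an unadjusted p under 0.05 (15.6% of all genes). From 12 to 16 h 1 member rose, Chaf1a, out of only 2 genes in all (0.0184%), with a log2 change of 1.21 (SE 0.22, adjusted p = 0.019, limma). From 16 to 20 h 8 members rose and none fell, against 31 genes in all that rose (0.284%). These were Orc1, Cdc6, Mcm10, Cdc45, Gins1, Lig1, Chaf1a and Clspn, of which Mcm10 had the greatest change, 1.82 (SE 0.21, adjusted p = 0.00109, limma). All 42 members had a positive change in this step, as did 5333 of the 10897 genes tested. The median of the members was 0.62 on the log2 scale, against 0.00 for all genes. The 3 cultures at 20 h all lay above the 3 at 16 h for 40 of the 42 members, as they did for 10.2% of all genes. The 2 that overlapped were Dbf4 and Cdc7, the subunits of the origin firing kinase. From 20 to 24 h 4 members rose (0.385% of all genes), namely Cdc6, Mcm10, Cdc45 and Clspn. The counts of these steps rest on few libraries. Without the Th0 or without the Th1 cultures no member passed in the steps from 12 h on, and without the Th2 libraries at 4 and 24 h none passed from 20 to 24 h.

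Genes for mitosis, which act after replication, were set beside these as a comparison. The 20 mitosis genes were all past the threshold for a fall at 12 h (16.4% of all genes), and at 24 h 11 were past it for a fall (17.4%) and none for a rise, with 17 below and 3 above rest. Their median log2 change was -2.86 at 12 h and -1.19 at 24 h, against -0.40 and 1.01 for the replication genes. Mki67, a marker of cycling cells, was at 94.0 and 91.8 RPKM at rest, at 4.87, 4.10 and 3.87 RPKM at 12 h and at 8.93, 11.7 and 11.3 RPKM at 24 h. The early fall of Cdc6, Clspn, Mcm10, Orc1, Lig1 and Chaf1a thus ran together with that of the mitosis genes, whose part in it was not tested. The erythroid sum was still at 29503 to 47257 RPKM at 4 h, when 8 members had already fallen, and its part in the later fall was not tested.

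**Figure D4:**
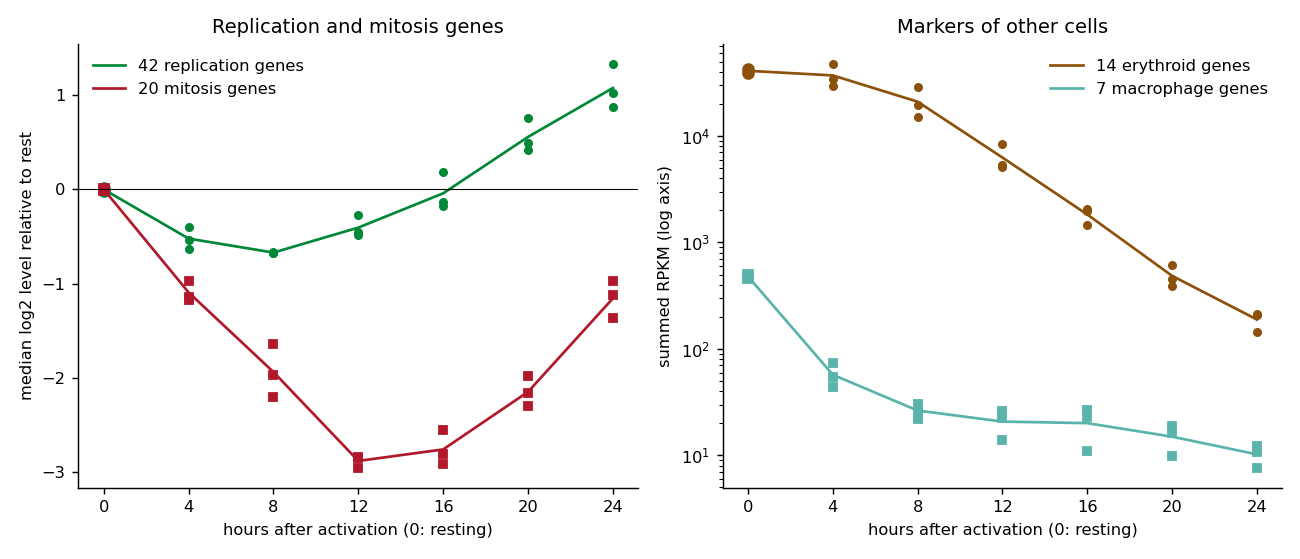
Left, the median log2 level relative to rest of the 42 replication genes and of 20 mitosis genes in each library (points), with lines through the means of the 3 cultures. Right, summed RPKM of 14 erythroid and 7 macrophage genes on a log axis. The mean line of the replication genes crossed the resting level between 16 and 20 h, with the Th2 library already at 0.18 at 16 h, and the median of the mitosis genes was below rest at 24 h.

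Of 35 further replication genes 34 were tested. At 24 h 8 had risen and none had fallen, where 12.7% and 17.4% of all genes did so, and their median log2 change was 0.73, against 1.01 for the members. At 12 h they were split, with 1 risen and 10 fallen (10.7% and 16.4% of all genes), 16 above and 18 below rest and a median of -0.04, against -0.40 for the members. Nasp, a histone chaperone, and Mcm8, a helicase of recombination, were 1.47 and 1.32 higher at 24 h on the log2 scale, and Top2a, which untangles DNA, and Asf1b, another histone chaperone, were -2.55 and -1.81 from rest at 12 h. Of 27 regulators of S phase entry, 9 had risen and 7 had fallen at 24 h, against the same 12.7% and 17.4% of all genes. Among those that rose were Myc (2.58), cyclin D2 (Ccnd2, 1.71) and Cdk4 (1.68), which drive the cell through G1, but also the cyclin-dependent kinase inhibitor Cdkn1a (2.75). The 7 that fell were the inhibitor Cdkn1b (-2.57), the retinoblastoma family genes Rb1 (-1.22) and Rbl2 (-1.55), the S phase cyclins Ccna2 (-1.63) and Ccne2 (-1.0), and E2f2 and E2f8. E2f1, an activator of replication genes, was at 6.62 and 7.15 RPKM at rest, at 2.05, 1.67 and 2.44 RPKM at 12 h and at 11.7, 14.6 and 13.0 RPKM at 24 h. It was low at 12 h and above rest at 24 h, whereas E2f2 and the repressor E2f8 had log2 changes of -2.81 and -2.39 at 24 h.

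The 3 conditions were compared over all time points, with the time point as a factor, to ask whether skewing alters the machinery. No member differed 2-fold in any comparison with limma, where 0.494% of all genes did between Th1 and Th0, 2.01% between Th2 and Th0 and 1.96% between Th2 and Th1. The 6 libraries of a condition were serial samples taken from its culture, so their spread is not one between cultures and the p-values of this comparison may be too small. A plot in the study's paper appears to key Th0 and Th2 the other way round from the deposited labels, which were followed here. Which is right was not settled, and with the names exchanged the sign of each Th2 against Th0 value would turn. As a check chosen after the values were seen, Gata3, a regulator of Th2 cells, was higher in the library labelled Th2 than in that labelled Th0 at all 6 times, with 31.1 against 11.2 RPKM at 24 h. Tbx21, a regulator of Th1 cells, was lower in it at all 6 times, with 3.50 against 41.04 RPKM at 24 h. Libraries labelled Th2 were higher in the members than those labelled Th0 by a modest amount: 12 members had an adjusted p under 0.05 (limma) for a higher level in Th2 and none for a lower one, where the adjusted p alone called 12.9% of the 10737 genes tested higher. Against Th1, 8 members were higher in Th2 and none lower (3.49% of all genes higher). The median log2 difference of the members was 0.23 in both comparisons, against 0.00 and 0.02 for all genes, and between Th1 and Th0 it was 0.00, with no member at an adjusted p under 0.05 (limma; 2.27% of all genes) and 3 at an unadjusted p under 0.05 (16.4% of all genes). The 12 were Mcm2, Mcm5, Orc1, Orc6, Gins1, Prim1, Prim2, Pold2, Pcna, Rfc3, Rfc4 and Tipin, with log2 differences between 0.29 and 0.54 and adjusted p between 0.000244 and 0.0428 (limma). Both comparisons use the same Th2 libraries.

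Mcm5 had the greatest difference from Th0 and shows how the conditions ran. It was at 30.9, 34.7 and 53.9 RPKM in Th0, Th1 and Th2 at 12 h, at 58.0, 55.9 and 90.5 RPKM at 16 h and at 93.5, 108.2 and 141.8 RPKM at 20 h. At 24 h the Th1 and Th2 cultures were close, at 148.4 and 151.7 RPKM, and Th0 was at 131.7 RPKM. Th2 was thus the highest at each of these times, by the least at 24 h. Counted over the members, Th2 was the highest of the 3 cultures for 23 of the 42 at 4 h, 16 at 8 h, 32 at 12 h, 37 at 16 h, 40 at 20 h and 27 at 24 h. The shares of all genes at these times were 37.4%, 40.5%, 42.5%, 40.5%, 37.6% and 31.7%. The 2 exceptions at 20 h were Gins2 and Pold2. Rpa1 was the member with the lowest difference, -0.24, with 60.6, 58.7 and 43.7 RPKM at 4 h and 54.9, 40.0 and 30.5 RPKM at 8 h. Without the Th2 libraries at 4 and 24 h, 19 members were higher in Th2 than in Th0 at an adjusted p under 0.05 (limma), and 11 higher than in Th1. The shares of all genes called in the fits with libraries left out are not given here, so these counts cannot be set against them. The counts were lowest, at 8 and 4, without the 12 h and without the 16 h time point.

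The change with time between 4 and 24 h was compared between conditions as a difference in slope, with a limit of 0.05 on the log2 scale per hour. No member passed in any of the 3 comparisons with limma, where 0.0279%, 3.93% and 0.95% of all genes did for Th1 against Th0, Th2 against Th0 and Th2 against Th1. At an unadjusted p under 0.05 there were 2, 12 and 9 members, and 9.23%, 23% and 18.2% of all genes. The median differences in slope were 0.011, 0.021 and 0.0099 per hour. Without the 4 h time point Pole2 passed for Th1 against Th0, Pole2 and Rpa3 for Th2 against Th0 and Rfc4 for Th2 against Th1, all with the steeper rise in the condition named first.

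**Figure D5:**
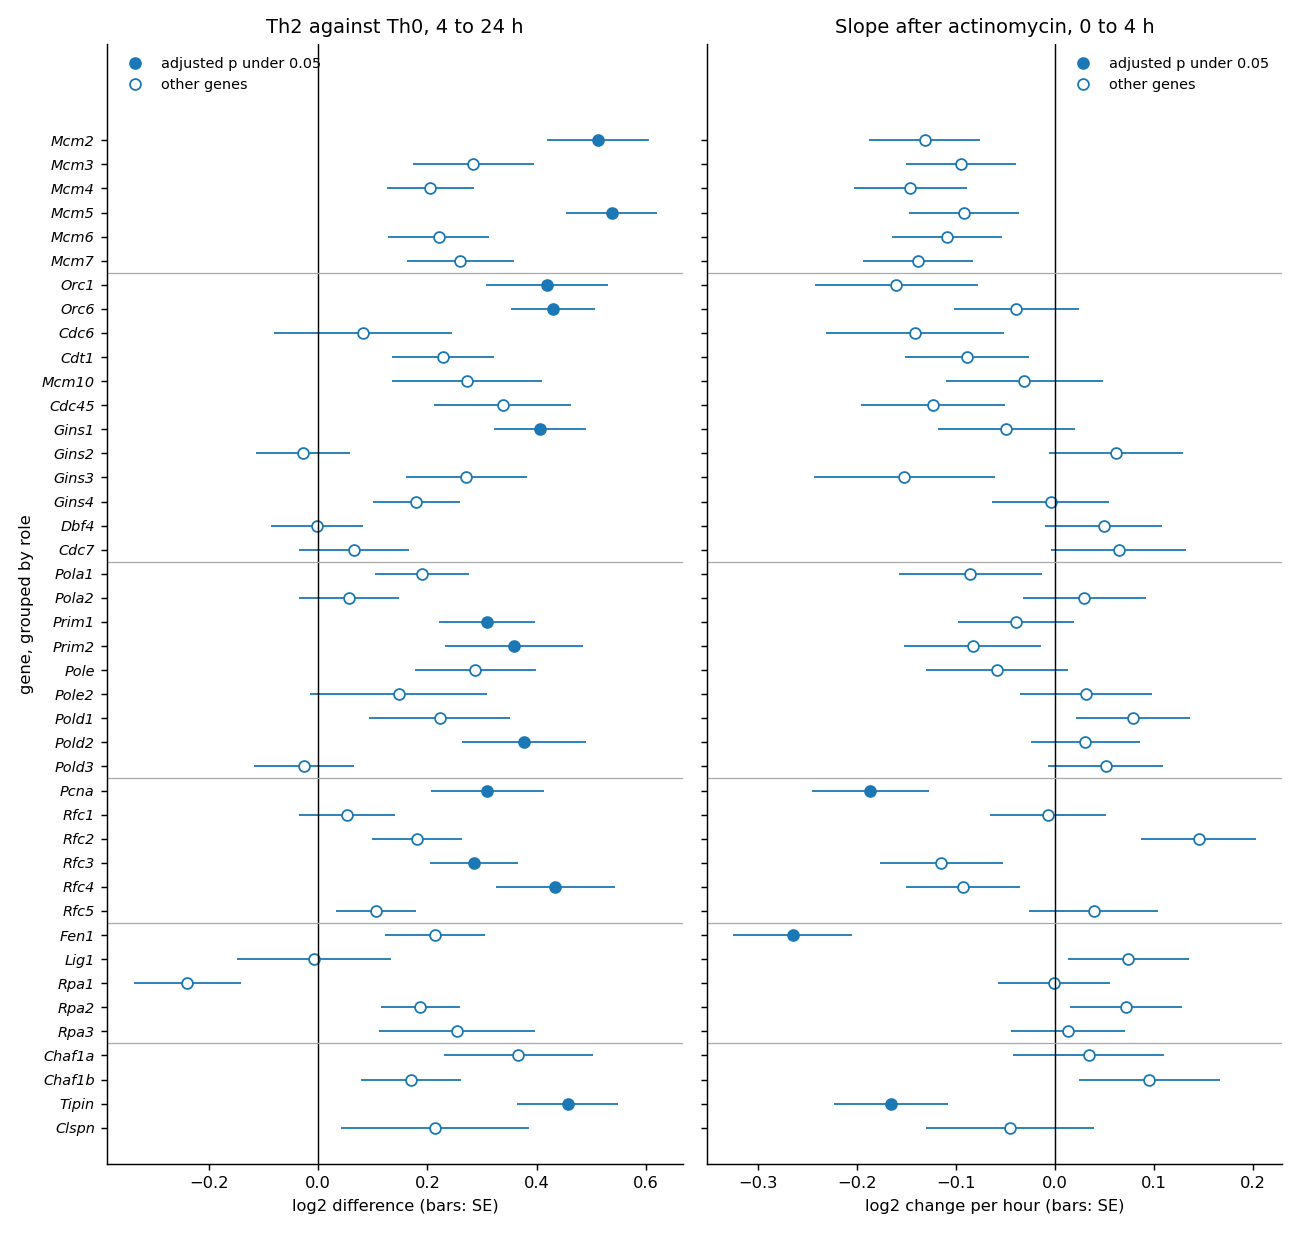
Left, log2 difference of Th2 from Th0 over 4 to 24 h for each gene, and right, log2 change per hour after actinomycin, with standard errors as bars and filled circles for an adjusted p under 0.05. The 12 filled circles on the left lie between 0.29 and 0.54, and on the right Fen1, Pcna and Tipin are filled and lie below 0.

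Actinomycin was added after 16 h of stimulation, and the level of a transcript relative to all others was followed for 4 h. Since RPKM are shares of the reads, a slope of 0 means a loss at the rate of the typical transcript and not a stable one. At the start the library lay within the range of the 3 cultures at 16 h for 20 members, above it for 20 (28% of all genes) and below it for 2 (39% of all genes). The median slope of the members was -0.04 on the log2 scale per hour, against 0.00 for all genes. With a limit of 0.25 per hour, 1 member fell and none rose, where 5.58% of all genes fell and 3.97% rose. It was Fen1, at 31.7, 29.2, 22.0 and 15.5 RPKM after 0, 1, 2 and 4 h, with a slope of -0.26 per hour (SE 0.060, adjusted p = 0.000363, limma). Its level dropped at each time, and without the 4 h library the slope was -0.26 and no longer passed the threshold (adjusted p = 0.227, limma).

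Pcna and Tipin also had an adjusted p under 0.05 for a fall (12% of all genes did), with slopes of -0.19 and -0.17 per hour. Pcna was at 369.7, 313.3, 333.7 and 214.1 RPKM and Tipin at 49.96, 39.4, 44.9 and 29.7 RPKM after 0, 1, 2 and 4 h, so that most of the fall of each came between 2 and 4 h. All 6 MCM2-7 genes had slopes below 0, between -0.15 and -0.09 per hour, and none of them at an adjusted p under 0.05 in limma, with 3 at an unadjusted p under 0.05 (33% of all genes). Their sum went from 496 RPKM at the start through 473 and 393 to 364 RPKM at 4 h. The polymerase genes had a median slope of 0.03 per hour, and Pold2 was nearly level at 78.6, 81.2, 79.3 and 86.4 RPKM. Each time was sequenced once, and the libraries at 1 and 2 h were shifted towards short transcripts, with medians of 0.18 and 0.23 for genes under 1024 bases and -0.12 and -0.15 for those over 4096 bases.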

How the data were processed

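RNA was sequenced from 24 libraries of CD4+ T cells. The authors deposited 1 table of RPKM values for 22010 entries, 1 of them without a name, and the submitters' processing notes name BWA and GRCm38; the counting tool, its annotation and its use of strand are not given in the sources used here. RPKM were taken to log2(RPKM + 0.5), and genes averaging 1 RPKM or more were fitted with limma 3.58.1 in R 4.3.3 (intensity trend, Benjamini-Hochberg adjustment over all genes tested). The 20 libraries of the time course were compared by time point, the 18 cultures by condition with time as a factor, and the 4 actinomycin libraries by slope. A change counted at an adjusted p under 0.05 and 2-fold, at a difference in slope of 0.05 per hour between courses, or at a slope of 0.25 per hour after actinomycin. Time points were compared with the 3 conditions as replicates, so differences between conditions enter the spread.

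Named members were up to 3 with the greatest rise and 3 with the greatest fall among those called in each comparison, plus Mcm2, Pcna, Cdc6, Cdc45, Pola1, Rpa3 and Orc6; other members named in the text were chosen after their values were seen. The members and gene lists were chosen with earlier results of these data known. Reads were recovered from the RPKM steps for 13 members (whole within 0.001 reads), and their intervals would cover counting error only. On simulated data 193 of 200 changed genes were found at 24 h and 164 of 180 for the slopes. The size of the change put into these data is not given here. How the share found depends on that size, such as near the limits on size used here, was not tested. Alternatives covered pseudocounts of 0.1 and 1, a filter at 5 RPKM or none, 2 other scalings, no intensity trend, fewer libraries and a correction for transcript length. Further software was Python 3.11.15, numpy 2.4.6, pandas 2.3.3, scipy 1.17.1 and matplotlib 3.10.9.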

Additional observations from a re-analysis of the deposited data

How the results depend on the processing

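Of 255 alternatives for the counts of members, 233 stayed within 1.5 times the reported count and 22 did not, and of 255 for the medians 252 moved by less than the spread between libraries. Of 630 alternatives for single members, 592 kept direction and side of the threshold, 32 lost the threshold, 1 gained it and 5 changed sign. The count at 24 h ranged from 19 to 24 and that at 12 h from 9 to 12. The labels number replicates only for the resting libraries, so resting libraries could not be paired with cultures. The cultures can be paired across time by condition, which the reported fit did not use. A fit of the cultures with condition as a factor gave 2, 1, 1, 8 and 4 members in the 5 steps from 4 to 24 h.

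The sign changed for Mcm2 at 12 h, to -0.10 with quantile normalization and -0.14 without the Th2 cultures (from -0.14 to 0.18 over the conditions left out), and for Pcna at 12 h, to 0.11 with median-of-ratios scaling, from -0.054 to 0.020 with a resting replicate left out and to 0.023 without the Th1 cultures. The 4 members past the threshold at 16 h became 7 without the Th2 cultures, and the median at 20 h was 0.41 with the length trend removed, an alternative chosen after seeing the data. From 4 to 8 h the count was 1 with a pseudocount of 1 or quantile normalization, and 0 to 5 with a condition left out. From 8 to 12 h it was 2 with a pseudocount of 0.1, 1 with condition as a factor and 0 to 1 with a condition left out. From 12 to 16 h it was 0 without a filter or with quantile normalization and 0 to 1 with a condition left out. Leaving out a condition gave 0 to 8 members from 16 to 20 h and 0 to 4 from 20 to 24 h, the 0 coming without the Th0 or the Th1 cultures. Without the Th2 libraries at 4 and 24 h, also chosen after seeing the data, 0 passed from 20 to 24 h and 1 in the course of Th1 against Th0, and the median difference in course of Th2 from Th0 was 0.031. Without the 4 h time point 1, 2 and 1 members passed in the courses of Th1 against Th0, Th2 against Th0 and Th2 against Th1, and the median of the last ranged from 0.0052 to 0.020 (without 24 h) over the time points left out. After actinomycin 0 members passed without the 4 h library. Fits that left out libraries had fewer samples; for these and the other alternatives the cause was not tested. Quantile normalization shifted the typical gene as well, to a median of 0.13 at 24 h on the log2 scale, against -0.04 as reported. The 12 members higher in Th2 than in Th0 by adjusted p alone (limma) became 8 to 24 over the alternatives, and the 8 higher than in Th1 became 4 to 16, with none lower in any. The shares of all genes called by adjusted p alone in these alternatives are not given here.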
